A study of Homo sapiens with 6 samples.

Results

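Expression of 35 genes of the integrated stress response was compared between A549 cells carrying a hairpin against TIGD1 and A549 cells carrying a control hairpin. The genes were fixed as a list of symbols covering the kinases and phosphatase subunits of the response, its transcription factors and known targets of the factor ATF4. This list was chosen with earlier results of these data known. The genes were matched exactly to the platform's gene symbols, and 34 of them had a probe set among the 18265 genes compared. GPT2 was not analysed here.

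A549 is an established human line from a lung adenocarcinoma. Both groups had received a lentivirus with a short hairpin RNA, and each had 3 arrays, called shControl and shTIGD1 after the labels, with a single hairpin sequence per group. The target sequences are shown because they are the difference between the groups that the labels state, the hairpin called shNC in the protocol being that of the shControl arrays.
shTIGD1: ctgctaacacaacatccat
shNC: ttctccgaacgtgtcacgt

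Values are log2 signals per probe set from 1-colour arrays, and where a gene had several probe sets the brightest over the 6 arrays stands for it. The median log2 signal of an array lay between 6.27 and 6.28. A difference is the shTIGD1 mean minus the shControl mean on the log2 scale, with its standard error (SE) from limma, and a gene passed at an adjusted p under 0.05. Nothing in the labels says that the replicates came from separate cultures, so the p-values measure only the spread between these arrays, which may be technical. TIGD1 itself did not pass as lower (-0.06, SE 0.04, limma adjusted p = 0.389), so each direction here is that of the arrays labelled shTIGD1. The 12 measured markers of A549 cells had a mean log2 signal of 12.9 to 13.0 on every array, and 2 of them were higher (EPCAM and CDH1) and 1 lower (ALDH3A1) in shTIGD1. Markers of immune, endothelial and fibroblast cells had 0 of 31 members higher and 2 lower (ITGAM and COL3A1), and the mean log2 signal of each of these lists lay between 4.42 and 5.00 on every array. CDKN2A, a gene that A549 is known to have lost and chosen here after its values were seen, read 5.66 in shControl and 6.22 in shTIGD1 on its brightest probe set. Its other probe sets read 3.93 against 7.35 and 4.64 against 5.23. Its part in the results below was not tested.

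The integrated stress response slows general protein synthesis when cells lack amino acids or haem, accumulate unfolded protein in the endoplasmic reticulum (ER) or meet viral RNA. Sensor kinases phosphorylate the alpha subunit of the initiation factor eIF2, which lowers initiation at most messages while raising translation of ATF4. ATF4 then binds, often together with C/EBP proteins, to composite elements in genes of amino acid synthesis and transport, redox control and cell death. Phosphatase complexes reverse the phosphorylation and end the response. Since ATF4 is controlled mainly at translation, its transcript is a limited readout of its activity, and its targets are commonly read instead.

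The core of the composite element, TGATGNAA, was looked for on both strands in RefSeq promoter windows of build GRCh38.p14, each running from 250 bases before to 50 bases after a start site. Such windows were available for 27 of the 34 measured genes, and 6 of these (22.2%) held the core, against 4.46% of the 27305 genes in the table. The 5 with the stricter letters TGATGCAA compare with 1.08% of all genes. Known targets of ATF4 were picked for the list, so the higher shares may follow from that choice and are no finding of these data. The matches are shown because genes that carry them moved in different directions in these data. Each stretch is read along the gene's own strand and lies wholly before the start site, and capitals mark the core. In CHAC1 and FGF21 the core lies on the opposite strand and so appears as its reverse complement.
CHAC1, chr15:40953232-40953299, plus strand, core 209 bases before the start: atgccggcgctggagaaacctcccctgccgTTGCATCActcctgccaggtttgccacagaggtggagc
JDP2, chr14:75427976-75428021, plus strand, core 16 bases before the start: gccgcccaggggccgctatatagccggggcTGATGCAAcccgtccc
PPP1R15B, chr1:204412007-204412067, minus strand, core 227 bases before the start: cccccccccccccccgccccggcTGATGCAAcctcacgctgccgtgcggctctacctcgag
ASNS, chr7:97872439-97872506, minus strand, core 68 bases before the start: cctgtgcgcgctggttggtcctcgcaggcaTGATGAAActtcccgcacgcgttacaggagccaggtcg
CEBPG, chr19:33374041-33374108, plus strand, core 42 bases before the start: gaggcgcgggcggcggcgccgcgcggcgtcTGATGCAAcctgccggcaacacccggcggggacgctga
FGF21, chr19:48755440-48755507, plus strand, core 54 bases before the start: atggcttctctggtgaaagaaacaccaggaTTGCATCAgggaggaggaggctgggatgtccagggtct

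Of these 6 genes, CHAC1 and JDP2 fell in the arrays labelled shTIGD1, PPP1R15B rose, and ASNS, CEBPG and FGF21 did not pass. A match is a description of letters and does not show that a factor binds there. The windows of CCPG1, TRIB3, EIF2AK3, STC2, DDIT4 and PPP1R15A, which also passed, had no match, which says only that these letters are not in this window.

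Across the response no common direction was seen. Of 34 genes, 4 rose (CCPG1, EIF2AK3, PPP1R15B and TRIB3), 5 fell (CHAC1, STC2, DDIT4, JDP2 and PPP1R15A) and 25 did not pass. These 9 are 26.5% of the list, beside 23.8% of all genes, where 9.79% were higher and 14.0% lower. Among genes with a mean log2 signal of at least 6, 9 of 31 listed genes passed (29.0%) beside 35.1% of all such genes, so the share that passed was close to or below that of the array as a whole. The median difference was -0.03 for the list and -0.04 for all genes, and the median absolute difference was 0.10 for both. CCPG1 and CHAC1 passed and moved by 1.5-fold or more, 2 of the 34 listed genes beside 202 of all 18265 genes.

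**Figure D1:**
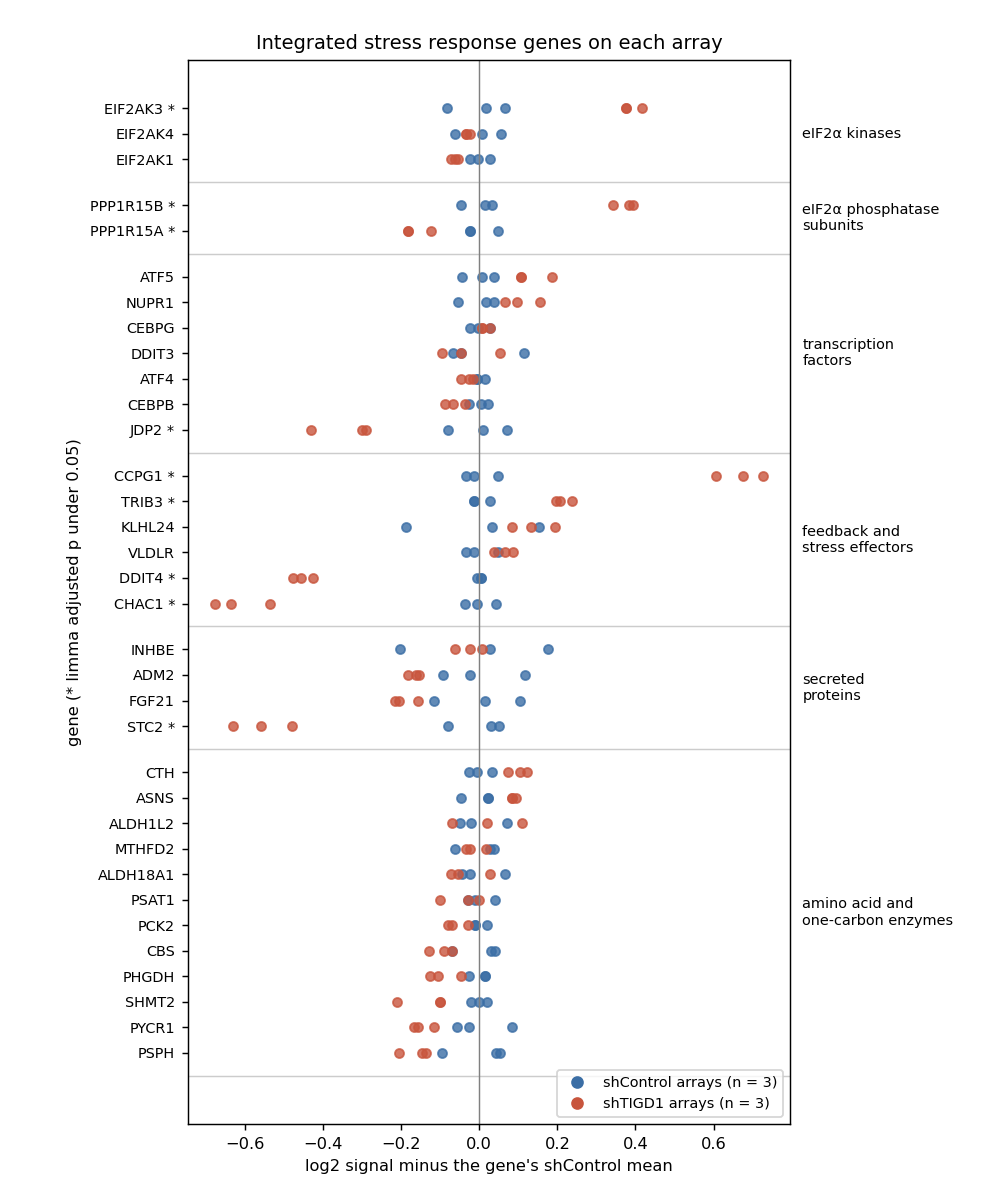
Log2 signal of each of the 34 measured genes on each array, minus the gene's shControl mean, grouped by role; each point is 1 array, blue for shControl and red for shTIGD1, and a star marks an adjusted p under 0.05. The red points of CCPG1, EIF2AK3, PPP1R15B and TRIB3 lie to the right of all blue points, those of CHAC1, STC2, DDIT4, JDP2 and PPP1R15A to the left (PPP1R15A turned to the right when arrays were levelled on spike-in controls), and the amino acid enzymes stay close to 0.

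The groups did not overlap for 23 of the 34 genes (67.6%), beside 42.3% of all genes. Among genes with a mean of at least 6 the shares were 71.0% of 31 and 59.4%. Of the 23, 8 were higher and 15 lower. Of the same 23, 14 did not pass the test, beside 3387 of the 7732 genes without overlap on the whole array.

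The directions depended on the level to which the arrays were set. Control transcripts added at hybridization (bioB, bioC and bioD, 14 probe sets) read 10.46 ± 0.02 in shControl and 10.25 ± 0.02 in shTIGD1, and poly-A controls added to the RNA (24 probe sets) read 7.15 ± 0.06 and 6.81 ± 0.04 (SD, n = 3 each). Levelling the arrays on the former adds 0.21 to every difference, and on the latter 0.33. With hybridization controls, 20 listed genes were higher and 3 lower, beside 47.8% and 1.98% of all genes. With poly-A controls, 28 were higher and 2 lower, beside 76.5% and 0.652%. CHAC1 and STC2 remained lower under both scalings, and DDIT4 under the first only (-0.12, adjusted p = 0.0853 with poly-A controls). The 4 rises passed under both, but as both scalings raise every difference, this does not test the rises. The median difference of all genes moved from -0.04 to 0.17 and 0.30, and the list's median followed it closely, at 0.18 and 0.30. Differences below are as deposited, and relative to the median gene they are 0.04 higher.

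**Figure D2:**
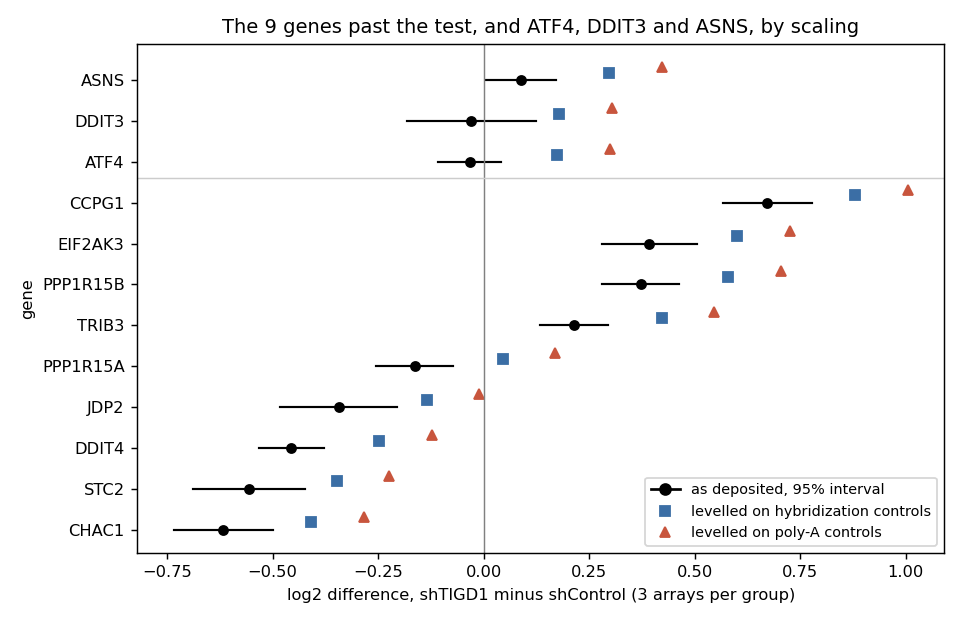
Log2 difference, shTIGD1 minus shControl, of the 9 genes that passed and of ATF4, DDIT3 and ASNS, with 3 arrays per group; black circles are the deposited values with their 95% interval, blue squares the values after levelling on hybridization controls and red triangles after levelling on poly-A controls. Each scaling moves all genes by the same amount, and it carries PPP1R15A from -0.16 to 0.04 and 0.17 while CHAC1 stays below 0 at -0.41 and -0.28.

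Among the kinases that start the response, EIF2AK3 rose. It encodes PERK, which sits in the ER membrane and senses unfolded protein. Its log2 signal was 8.08, 8.23 and 8.18 in shControl and 8.54, 8.58 and 8.54 in shTIGD1. All shTIGD1 values lay above all shControl values, with a difference of 0.39 (SE 0.05, adjusted p = 0.00285), or 1.31-fold. Each of its 3 probe sets passed as higher, at 0.39, 0.40 and 0.52.

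EIF2AK4, which encodes the amino acid sensor GCN2, read 7.25, 7.32 and 7.37 against 7.28, 7.28 and 7.29. The groups overlapped, with a 95% interval from -0.13 to 0.07 for the difference. EIF2AK1 encodes HRI, a kinase activated by lack of haem and by mitochondrial stress. Its brightest probe set read 11.96, 11.94 and 11.99 in shControl and 11.89, 11.91 and 11.90 in shTIGD1, slightly lower without overlap (-0.06, adjusted p = 0.218). The 8 probe sets of EIF2AK1 disagreed, with 2 past the test as lower (-0.20 and -0.12) and 1 as higher (0.20), so no direction is given for it. It was the only listed gene whose probe sets passed in both directions.

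The subunits that direct protein phosphatase 1 to eIF2 went opposite ways. PPP1R15B encodes CReP, the constitutive subunit. It read 9.53, 9.61 and 9.59 in shControl and 9.97, 9.96 and 9.92 in shTIGD1, a rise of 0.37 (SE 0.04, adjusted p = 0.00172). The groups were separate, and all 4 probe sets passed as higher, between 0.36 and 0.43. PPP1R15A encodes GADD34, the subunit induced by ATF4 and DDIT3 as feedback. It read 9.97, 9.90 and 9.90 in shControl and 9.80, 9.74 and 9.74 in shTIGD1, lower by a small amount without overlap (-0.16, SE 0.04, adjusted p = 0.0258). This fall rests on 1 probe set, turned to 0.04 and 0.17 under the control scalings, and did not pass when any 1 of the 6 arrays was left out (adjusted p between 0.0503 and 0.0817).

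ATF4 encodes the central transcription factor. Its single probe set read 13.27, 13.25 and 13.25 in shControl and 13.23, 13.21 and 13.24 in shTIGD1. The shTIGD1 values were all lower, but by 0.03 on average, which did not pass (95% interval -0.11 to 0.04, adjusted p = 0.501). In percent, that interval runs from a fall of 7.14% to a rise of 2.95%. DDIT3, which encodes the pro-apoptotic factor CHOP, read 7.95, 7.77 and 7.79 against 7.79, 7.74 and 7.89. These groups overlapped, and its 95% interval ran from -0.18 to 0.12, so that changes within that range were not resolved by 3 arrays per group.

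ATF5, a relative of ATF4 that shares its translational control, read 8.65, 8.68 and 8.60 in shControl and 8.75, 8.75 and 8.83 in shTIGD1. It was higher on all shTIGD1 arrays but missed the threshold (0.13, SE 0.04, adjusted p = 0.064). With the mean of its probe sets it passed as higher (0.15, limma adjusted p = 0.0236). It passed in 7 of 18 alternative settings, both control scalings among them, and did not pass when any array was left out. Fitted singly, 1 of its 4 probe sets passed (0.19), where 22.5% of all probe sets on the array did. CEBPB and CEBPG encode C/EBP proteins that pair with ATF4 on composite elements. CEBPB differed by -0.07 and CEBPG by 0.02, and neither passed (adjusted p = 0.217 and 0.781). NUPR1 encodes a small stress-induced chromatin cofactor and differed by 0.10, higher on all shTIGD1 arrays (adjusted p = 0.135).

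JDP2 was the factor that fell. It encodes a repressor of the AP-1 family. Its log2 signal was 8.45, 8.39 and 8.30 in shControl and 8.09, 7.95 and 8.08 in shTIGD1. The groups were separate, with a difference of -0.34 (SE 0.06, adjusted p = 0.00844), or 1.27-fold lower. A second JDP2 probe set carried identical values on every array and adds nothing, and the third, near background at 4.6 in both groups, differed by 0.00. The call ended under hybridization (-0.14, adjusted p = 0.105) and poly-A control scaling (-0.01, adjusted p = 0.871).

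The effectors held the largest changes in both directions. CCPG1 encodes a receptor that hands pieces of ER to autophagy. It read 8.78, 8.72 and 8.70 in shControl and 9.34, 9.46 and 9.41 in shTIGD1. Every shTIGD1 array was well above every shControl array, and the rise was 0.67 (SE 0.04, adjusted p = 0.00047), or 1.59-fold. Of its 8 probe sets, 7 passed as higher and the other was at 0.23. RefSeq also lists a readthrough RNA of CCPG1 with its neighbour, DNAAF4-CCPG1, from which these probe sets may not separate it.

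CHAC1, a strongly ATF4-dependent gene, encodes an enzyme that breaks down glutathione. It read 8.74, 8.66 and 8.69 in shControl and 8.06, 8.02 and 8.16 in shTIGD1. Those groups were far apart compared with their spread, and the fall was 0.62 on the log2 scale (SE 0.05, adjusted p = 0.000819), or 1.53-fold. The other CHAC1 probe set fell by 0.54.

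DDIT4 encodes REDD1, an inhibitor of mTORC1 that is induced by ATF4, hypoxia and glucocorticoids. It read 12.31, 12.31 and 12.30 in shControl and 11.85, 11.88 and 11.83 in shTIGD1. The shControl arrays were nearly equal and all shTIGD1 values were lower, by 0.46 on average (SE 0.03, adjusted p = 0.000601), from a single probe set. TRIB3 went the other way. It encodes a pseudokinase that binds ATF4 and DDIT3 as feedback, and is itself one of their targets. It read 12.16, 12.12 and 12.12 in shControl and 12.33, 12.34 and 12.37 in shTIGD1, a rise of 0.21 (SE 0.03, adjusted p = 0.00639) with separate groups. Its dimmer probe set rose by 0.39.

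KLHL24, an adaptor of a ubiquitin ligase, had the widest spread of the effectors, at 6.80, 7.02 and 7.14 against 7.07, 7.18 and 7.12. The groups overlapped, and the difference of 0.14 did not pass (adjusted p = 0.304). VLDLR, a lipoprotein receptor induced by ATF4, differed by 0.06 (adjusted p = 0.320).

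Among secreted products, STC2 fell. It encodes stanniocalcin 2, a glycoprotein induced in ER stress. It read 9.42, 9.44 and 9.31 in shControl and 8.83, 8.76 and 8.91 in shTIGD1. The lowest shControl array lay well above the highest shTIGD1 array, and the difference was -0.56 (SE 0.06, adjusted p = 0.0016), or 1.47-fold lower. All 3 probe sets passed as lower, between -0.56 and -0.44.

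ADM2, a peptide of the calcitonin family, was lower on all shTIGD1 arrays but did not pass (6.46 ± 0.11 against 6.30 ± 0.01, SD, n = 3 each, adjusted p = 0.0857). It passed without shControl replicate 2 (-0.21). FGF21, a metabolic hormone made under stress, had a mean under 5 in both groups, 3.90 and 3.70. Signals this low are near background, where the median of the 31 markers of other cell types lay (4.73), and no fold is given for FGF21. It did not pass (-0.20, adjusted p = 0.0588), except without shControl replicate 2 (-0.25) among the arrays left out in turn. INHBE, a subunit of activins, overlapped between groups at 5.29 ± 0.19 and 5.26 ± 0.04 (SD, n = 3 each).

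**Figure D3:**
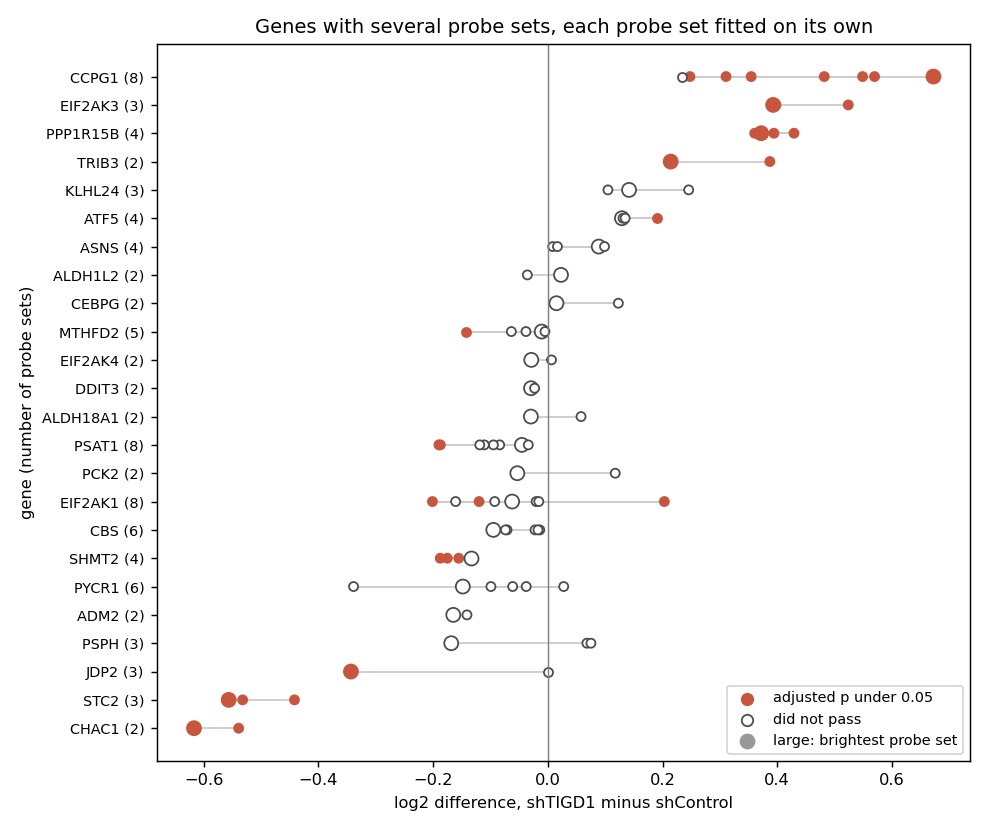
Log2 difference, shTIGD1 minus shControl, of every probe set of the 24 genes with more than 1 probe set, each fitted on its own; filled points passed an adjusted p of 0.05, open points did not, and the large point is the brightest probe set. All probe sets of CHAC1 and STC2 lie left of 0 and all of CCPG1, EIF2AK3, PPP1R15B and TRIB3 right of 0, while those of EIF2AK1 fall on both sides.

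Enzymes of amino acid and one-carbon metabolism are the most widely used readout of ATF4 activity. On its brightest probe set, none of the 12 that were measured passed the limma test as deposited, and their differences ran from -0.17 to 0.10. At an unadjusted limma p under 0.05 the count was 6 of 12, beside 6734 of all 18265 genes. This count of 0 depended on the fit. Tested only among genes with a mean of at least 6, ASNS and CTH passed as higher and PHGDH, PSPH, SHMT2 and PYCR1 as lower. These were 6 of the 12, of which ALDH1L2 was too dim to enter this fit, beside 49.3% of all such genes. With a trended, robust variance, ASNS passed as higher and PHGDH, PSPH, SHMT2, CBS and PYCR1 as lower, also 6 of 12, beside 31.8% of all genes. The enzymes had a median log2 signal of 10.54, beside 6.91 for all genes. The share of equally bright genes was not computed for that fit. Tested among genes with a mean of at least 5, 1 enzyme passed as higher and 3 as lower, beside 2165 and 3058 of 12787 genes. ASNS, which encodes asparagine synthetase, read 12.49, 12.56 and 12.56 in shControl and 12.62, 12.62 and 12.63 in shTIGD1. It was slightly higher on every shTIGD1 array, by 0.09 (95% interval 0.01 to 0.17, adjusted p = 0.115). CTH makes cysteine from cystathionine and was higher by a like amount (0.10, adjusted p = 0.0964).

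The serine enzymes had differences below 0 that did not pass among all genes. PHGDH, PSAT1 and PSPH encode its successive enzymes and differed by -0.10, -0.05 and -0.17. Fitted singly, 2 of the 8 PSAT1 probe sets passed as lower, where 22.5% of all probe sets passed. All of them lay between -0.19 and -0.03. PSPH read 10.48, 10.62 and 10.63 against 10.43, 10.37 and 10.44, with separate groups (adjusted p = 0.0575). It passed when shControl replicate 1 was left out (-0.22). The direction rests on this probe set, as the dimmer ones differed by 0.07 and 0.08 and the mean of all probe sets by -0.008. SHMT2 encodes the mitochondrial enzyme that turns serine into glycine. Its brightest probe set read 10.67, 10.65 and 10.63 against 10.55, 10.44 and 10.55 (-0.13, adjusted p = 0.0638), and the 3 dimmer ones passed as lower, between -0.19 and -0.16. MTHFD2 and ALDH1L2, which act next in mitochondrial folate metabolism, overlapped between groups on their brightest probe sets, with differences of -0.01 and 0.02. Of the 5 MTHFD2 probe sets, 1 passed as lower when fitted singly (-0.14, limma adjusted p = 0.0486). ALDH1L2 was close to background at 5.04 and 5.06.

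In proline synthesis, ALDH18A1 differed by -0.03 and PYCR1 by -0.15, and neither passed (adjusted p = 0.703 and 0.0687). CBS, which makes cystathionine, and PCK2, the mitochondrial phosphoenolpyruvate carboxykinase, differed by -0.09 and -0.05. Of the 12 enzymes 9 had a difference below 0, as 22 of the 34 listed genes and 11054 of the 18265 genes did. Levelled on poly-A controls, all 9 of them were above 0.

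Genes next to the list in the pathway were counted in the same fit. Their lists were also chosen with earlier results of these data known, so the counts are not independent evidence. Of these 90 genes, 89 had a mean log2 signal of at least 6. Among all genes that bright 35.1% passed, beside 23.8% of all genes. Of 37 other known targets of ATF4, 5 rose and 6 fell (median -0.05), or 29.7%, between these shares. The falls were led by SESN2 (-0.50), an inhibitor of mTORC1, the haem oxygenase HMOX1 (-0.40), the cytokine GDF15 (-0.27) and the arginine transporter SLC7A1 (-0.22). SESN2 and GDF15 are also known targets of p53. The rises were led by TXNIP (0.52), the autophagy protein MAP1LC3B (0.36), the ER oxidase ERO1A (0.30) and the mitochondrial protease LONP1 (0.19). TXNIP is known chiefly as an inhibitor of thioredoxin that responds to glucose. Of the 12 aminoacyl-tRNA synthetases in this list only MARS1 passed, at -0.12. The cystine transporter subunits SLC7A11 and SLC3A2 each differed by -0.06 and ATF3 by 0.14, and these did not pass.

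Of 19 genes of the eIF2 machinery and its sensors, 3 rose and 5 fell (42.1%, beside 23.8% of all genes and 35.1% of those with a mean of at least 6). EIF2AK2, which encodes the RNA sensor kinase PKR, fell by 0.29 (SE 0.03, adjusted p = 0.00258). GCN1, a partner of GCN2 on stalled ribosomes, fell by 0.20, and EIF2B3 and QRICH1 by 0.18 and 0.17. The mitochondrial protease OMA1 rose by 0.24, EIF2A by 0.18 and DNAJC3, an inhibitor of PERK and PKR, by 0.17. The gene of the phosphorylated subunit itself, EIF2S1, differed by -0.003 (adjusted p = 0.957).

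Of 14 further genes of serine, glycine and one-carbon metabolism, 4 rose and 2 fell (42.9%, beside the same 23.8% and 35.1%). The cytosolic enzyme SHMT1 rose by 0.46 (SE 0.04, adjusted p = 0.000981). Its mitochondrial counterpart SHMT2 did not pass on its brightest probe set, while 3 of its 4 probe sets passed as lower when fitted singly. OAT and GOT1 rose by 0.29 and 0.28, and AHCY and TYMS fell by 0.28 and 0.14. Of 20 genes of the ATF6 and IRE1 arms of the unfolded protein response, 10 rose and 0 fell, with a median of 0.12 beside -0.04 for all genes. HSPA5 (0.43), DNAJB9 (0.42), XBP1 (0.42) and HERPUD1 (0.39) had the largest rises. The ATF6 and IRE1 list had been seen to rise in these data when it was chosen, so its count is not independent evidence.

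Summed over these neighbouring lists, 22 of 90 genes rose and 13 fell, or 38.9%. Of all genes 23.8% passed, with 9.79% higher and 14.0% lower, and of genes with a mean of at least 6, 35.1% passed. The sum includes the 10 rises of the ATF6 and IRE1 list. That list had been seen to rise when it was chosen, so the sum is not independent evidence. The count of rises was between 15 and 18, and that of falls between 7 and 9, when any 1 of the 6 arrays was left out. Of the 13, SESN2 and HMOX1 were also lower with hybridization control scaling, and SESN2 with poly-A control scaling. The ATF6 and IRE1 list had 18 higher and 0 lower under both scalings, where 47.8% and 76.5% of all genes were higher. Both scalings raise every difference, so these counts do not test the rises of that list.

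**Figure D4:**
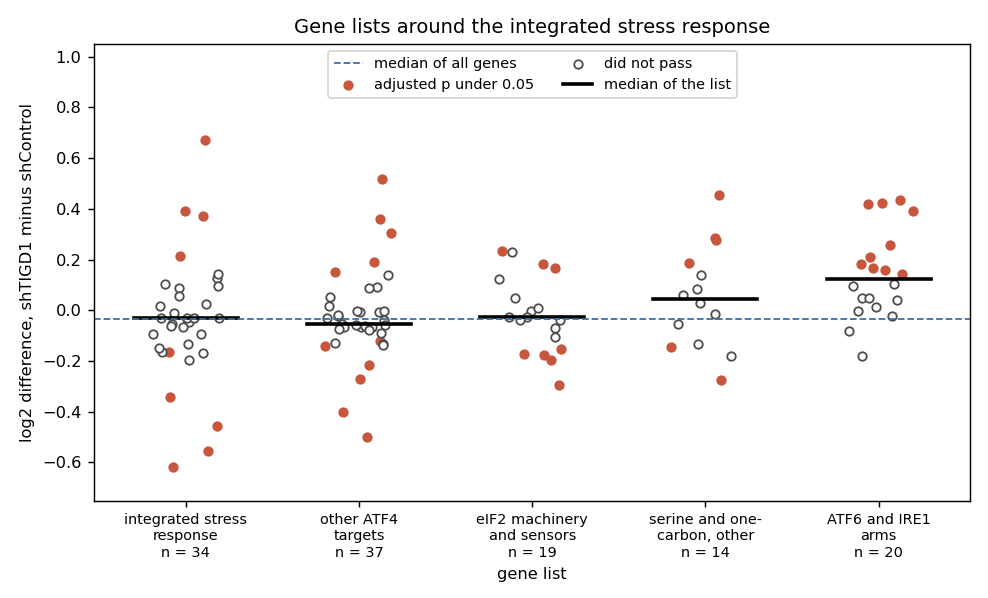
Log2 difference, shTIGD1 minus shControl, of each gene of the integrated stress response list and of the neighbouring lists; filled points passed an adjusted p of 0.05, open points did not, black bars are list medians and the dashed line is the median of all genes. The listed genes and the other ATF4 targets spread to both sides of the dashed line, with medians of -0.03 and -0.05 beside -0.04, and the ATF6 and IRE1 genes lie mostly above it (under control scaling all medians move above 0).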

How the data were processed

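Biotin-labelled cRNA of 6 samples was read on 1-colour Affymetrix arrays, as the labels' protocols state. The submitters' processing notes name GCOS and RMA as the source of the deposited log2 values, without versions. Their range fits base 2, which no label names. RMA sets the arrays to like distributions, so a shift common to most genes is removed before deposit. Of 49395 probe sets, 102 controls were left out, and 45336 had 1 gene symbol, which gave 18265 genes.

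The group difference was fitted in R 4.3.3 by limma 3.58.1 (lmFit, then eBayes) and tested on both sides, with Benjamini-Hochberg adjustment over all genes, tested on simulated data. Any pair of arrays shared at most 184 exactly equal values of 49395, as deposited. Tables and figures used Python 3.11.15, pandas 2.3.3 and matplotlib 3.10.9. All listed genes could be named, with values by array for those past the threshold, at an absolute difference of 0.2 or more, or central to the pathway. From neighbouring lists up to 4 genes past the threshold in each direction could be named. The choice of MARS1, SLC7A11, SLC3A2, ATF3, EIF2S1 and the markers came after seeing their values. The members and lists were chosen with earlier results of these data known. Entries without a probe set of that symbol were not analysed here. Alternatives were other probe set rules, normalizations, filters, variance models, a replicate block and leaving out each array. Scan batches were not used here. The number of arrays limits the precision.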

Additional observations from a re-analysis of the deposited data

How the results depend on the processing

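The level to which arrays were set moved most counts. With hybridization control scaling, 8738 genes were higher and 361 lower, 20 and 3 of the listed genes, and 65 and 2 of the neighbouring lists. With poly-A control scaling the counts were 13965 and 119, 28 and 2, and 81 and 1. The list's median became 0.18 and 0.30, and over the 24 listed genes with a second probe set it was -0.008, where all genes had -0.017 and 1225 of 11837 were lower. TIGD1 turned to 0.15 and 0.28 and passed as higher under both (limma adjusted p = 0.0388 and 0.00227), as 47.8% and 76.5% of all genes did. Of the 22 listed genes below 0 as deposited, the same 18 were above 0 with hybridization and poly-A controls: ATF4 (0.175 and 0.30), DDIT3 (0.179 and 0.304), PSAT1 (0.163 and 0.288), PHGDH (0.113 and 0.238), PSPH (0.04 and 0.165), SHMT2 (0.074 and 0.199), MTHFD2 (0.197 and 0.322), PCK2 (0.155 and 0.280), CEBPB (0.142 and 0.267), PPP1R15A (0.045 and 0.170), EIF2AK1 (0.146 and 0.271), EIF2AK4 (0.179 and 0.304), CBS (0.113 and 0.238), FGF21 (0.011 and 0.136), ADM2 (0.043 and 0.168), INHBE (0.179 and 0.304), PYCR1 (0.06 and 0.185) and ALDH18A1 (0.178 and 0.303). Both scalings add 1 constant per array, which is their construction, and why the controls differ between groups was not tested.

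Filters on dim genes gave more calls. With genes of mean 6 or more, 7 listed genes were higher and 10 lower, beside 2200 and 3104 of 10766 genes. With mean 5 or more they were 6 and 9, beside 2165 and 3058 of 12787. The trended, robust variance gave 7 and 11, beside 2441 and 3365 of 18265, and 30 higher and 24 lower in the neighbouring lists. Against a 1.2-fold change, limma's treat left 175 genes higher and 87 lower, 1 and 2 of the listed genes, and 0 and 0 of the neighbouring lists (8 of 90 at an unadjusted p under 0.05). CHAC1 and CCPG1 passed in all 18 alternatives.

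With the replicate number as a block, 1095 genes were higher and 1293 lower, 4 and 4 of the listed genes, and 11 and 6 of the neighbouring lists. The replicate block ended the call of PPP1R15A (adjusted p = 0.0631) and of no other listed gene. Deviations of same-numbered arrays correlated at -0.03, -0.13 and -0.09, so the numbers were not taken to pair the samples, and no array correlated best with its own number.

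Leaving out each array in turn gave 1176 to 1474 genes higher and 1566 to 1915 lower. Of the listed genes 4 were higher each time and 4 to 6 lower, with a median from -0.049 to -0.027. The neighbouring lists had 15 to 18 higher and 7 to 9 lower, and TIGD1 ran from -0.09 to -0.03. Counts of all genes higher were lowest without shTIGD1 replicate 1 (1176) and replicate 3 (1187). With 3 arrays per group, differences of the size of ATF4's were not resolved, and signals near background carry little information.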
